A study of Mus musculus with 4 samples.

Results

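Distal regions whose accessibility at least doubled in Fgf13cko are described here, in neurospheres grown from the hippocampus of newborn mice. Of 29121 merged regions in the count table, 29083 lay on chromosomes 1 to 19 and X. Of these, 15864 were distal, meaning more than 5000 bp from the nearest transcription start site given in that table. Of the distal regions, 12748 had a mean of at least 10 CPM. CPM is tags scaled to a fixed total (counts per 1e6) in the nuclear regions. A region was kept when both Fgf13cko libraries had at least 2 times the CPM of each control library. The rule kept 716 regions, 5.62% of the 12748. The reverse rule, each control library at least 2 times the CPM of each Fgf13cko library, kept 281 regions, which is 2.2%. The members were chosen on the difference between the groups, so their levels and ratios are descriptions and carry no test.

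The data are ATAC-seq, in which a transposase inserts sequencing adapters into open chromatin, so that the number of tags in a region reports how accessible it was. Cells came from C57BL/6 pups at P0 and were cultured for 7 days with FGF-2 and EGF at 20 ng/ml each, the cells of 1 mouse filling 2 wells. The 2 control libraries were hGFAPCre+, Fgf13+/y and the 2 Fgf13cko libraries were hGFAPCre+, Fgf13 flox/y, so all 4 carried the Cre transgene and the animals carried 1 X chromosome. The controls were littermates, and the labels do not tell if each group's libraries are from different mice. The hGFAP promoter drives Cre in radial glia and their progeny, so recombination depends on that promoter's activity in each cell. In bulk cultures, more cells of a type and more open chromatin per cell cannot be told apart.

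Distal accessible regions are where many enhancers lie, the stretches of DNA at which transcription factors bind and act on a promoter that can be many kilobases away. In neural progenitors such regions are known to be bound by SOX, NFI, basic helix-loop-helix and AP-1 factors, and many sit in introns of genes other than their target. Fgf13 encodes a fibroblast growth factor homologous factor, which stays inside the cell and binds sodium channels and microtubules. Neurospheres are kept in a progenitor state by FGF-2 and EGF, which act through FGF receptors, the EGF receptor and the MAPK cascade.

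Sequence was at hand for the members that overlap a RefSeq start-site window, which holds 250 bases before and 50 bases after an annotated start, on GRCm38.p6, the assembly of mm10. Of the 716 members, 17 (2.37%) overlapped such a window, against 408 of the 12748 distal regions (3.20%). By RefSeq these lie at or near a start site, and they count as distal only by the start sites of the count table. All 17 windows belonged to predicted or little-studied long non-coding RNAs, and 10 lay wholly inside the member. The 8 printed are the 4 with the largest lowest Fgf13cko CPM over highest control CPM, followed by the other 4 with an AP-1 motif. They were chosen after their values were seen. Each runs 5′ to 3′ on the strand of the non-coding RNA, with capitals at AP-1 (TGANTCA), SOX (ACAATG) and NFI half-site (TTGGCA) matches on either strand.
C030029H02Rik region, start of Gm51502: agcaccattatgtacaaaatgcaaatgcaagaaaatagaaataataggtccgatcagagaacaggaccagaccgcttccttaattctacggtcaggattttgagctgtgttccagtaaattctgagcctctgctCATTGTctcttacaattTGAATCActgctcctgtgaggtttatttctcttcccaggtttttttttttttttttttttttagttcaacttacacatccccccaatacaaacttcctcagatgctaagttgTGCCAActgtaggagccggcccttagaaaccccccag
Nptx1 region, start of Gm39484: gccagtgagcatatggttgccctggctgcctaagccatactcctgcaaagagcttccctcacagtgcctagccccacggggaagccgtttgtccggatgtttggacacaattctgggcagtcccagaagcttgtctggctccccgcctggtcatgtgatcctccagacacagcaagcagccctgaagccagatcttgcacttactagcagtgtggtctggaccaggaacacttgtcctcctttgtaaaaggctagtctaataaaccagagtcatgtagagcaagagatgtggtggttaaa
Lmo1 region, start of Gm44781: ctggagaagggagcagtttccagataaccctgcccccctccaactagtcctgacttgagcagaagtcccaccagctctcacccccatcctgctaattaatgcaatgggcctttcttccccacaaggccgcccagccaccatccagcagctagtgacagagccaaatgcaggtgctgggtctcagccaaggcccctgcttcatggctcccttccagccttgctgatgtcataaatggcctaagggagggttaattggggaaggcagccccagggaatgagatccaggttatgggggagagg
Smad5 region, start of Gm32965: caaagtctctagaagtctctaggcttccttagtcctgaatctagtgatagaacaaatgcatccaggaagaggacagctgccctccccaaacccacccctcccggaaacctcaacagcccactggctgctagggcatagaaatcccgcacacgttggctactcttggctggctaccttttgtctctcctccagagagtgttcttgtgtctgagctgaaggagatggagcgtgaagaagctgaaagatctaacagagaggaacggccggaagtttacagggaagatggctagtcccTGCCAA
Hnrnpa3 region, start of Gm39853: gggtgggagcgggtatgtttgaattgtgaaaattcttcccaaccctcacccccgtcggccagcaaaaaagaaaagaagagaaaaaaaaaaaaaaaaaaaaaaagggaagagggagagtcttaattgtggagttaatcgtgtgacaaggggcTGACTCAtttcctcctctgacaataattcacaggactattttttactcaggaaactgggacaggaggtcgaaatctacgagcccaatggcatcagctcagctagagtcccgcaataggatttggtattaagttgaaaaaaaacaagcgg
2310043O21Rik region, start of Gm41309: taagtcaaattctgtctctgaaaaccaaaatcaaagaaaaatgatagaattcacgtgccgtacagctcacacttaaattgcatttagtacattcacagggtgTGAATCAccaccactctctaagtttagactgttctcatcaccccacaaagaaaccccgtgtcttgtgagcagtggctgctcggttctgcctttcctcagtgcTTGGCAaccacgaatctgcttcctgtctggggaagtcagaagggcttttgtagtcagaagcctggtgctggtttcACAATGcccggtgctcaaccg
Sema6d region, start of Gm34484: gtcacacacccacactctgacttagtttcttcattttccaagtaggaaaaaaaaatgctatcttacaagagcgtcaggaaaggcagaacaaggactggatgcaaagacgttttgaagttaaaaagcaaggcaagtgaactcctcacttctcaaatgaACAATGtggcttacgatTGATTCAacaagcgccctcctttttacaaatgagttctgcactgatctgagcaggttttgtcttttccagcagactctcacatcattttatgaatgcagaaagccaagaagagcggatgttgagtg
Coro1c region, start of Gm42005: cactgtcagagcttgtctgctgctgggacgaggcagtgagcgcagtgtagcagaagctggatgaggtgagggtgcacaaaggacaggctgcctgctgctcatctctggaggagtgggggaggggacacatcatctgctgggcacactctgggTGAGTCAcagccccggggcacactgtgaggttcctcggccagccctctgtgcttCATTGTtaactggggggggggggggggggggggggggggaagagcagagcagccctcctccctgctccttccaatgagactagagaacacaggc

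The windows lie on mm10 at chr7:136047820-136048119 (plus strand, with 291 bases inside the member), chr11:119522923-119523222 (plus), chr7:109142597-109142896 (plus), chr13:56678575-56678874 (minus), chr2:75613142-75613441 (plus), chr15:38602237-38602536 (minus), chr2:124720913-124721212 (minus) and chr5:113873106-113873405 (plus), in the order printed. The AP-1 letters occurred in 5 of the 17 members' windows (29.4%), in 8.95% of the windows of the 391 other distal regions that overlap one, and in 7.81% of all 32817 RefSeq windows. SOX letters were found in 6 of 17 (35.3%), against 12.0% and 12.6%. NFI half-sites were in 4 of 17 (23.5%), against 18.4% and 14.1%. The GC-rich SP/KLF motif GGGGCGG was in 0 of the 17, against 20.7% and 23.2%. With 17 windows these are descriptions only, and they cover 300 bases of regions that are mostly longer.

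The windows with the largest ratios sat in 2 members with a clear step between groups. The member 25107 bp downstream of the Nptx1 start (chr11:119521899-119523527, intergenic), near the gene of a neuronal pentraxin that clusters glutamate receptors, had 30.3 and 21.9 CPM in control 1 and 2 and 158 and 124 in Fgf13cko 1 and 2. Its mean was 5.40 times the control mean. The member whose nearest gene is C030029H02Rik (chr7:136046483-136048110, 221028 bp upstream) had 35.5 and 36.7 CPM in control and 159 and 165 in Fgf13cko. Both groups lay close together at that member, and the groups were far apart. At the member in the window of Gm44781, 28231 bp downstream of the start of Lmo1, a LIM-only cofactor of transcription factors, the values were 28.6 and 24.7 against 122 and 101 CPM.

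Depth and scale were as follows. Total tags were 24874408.5 and 26021386.5 in control 1 and 2 against 16776920.5 and 13133338.5 in Fgf13cko 1 and 2. The authors' peak lists held 38006 and 47148 peaks in control 1 and 2 against 64954 and 54373 in Fgf13cko 1 and 2. Each control library thus had more tags in total and fewer peaks than each Fgf13cko library. The nuclear regions held 2776652.5 and 3240201 tags in control 1 and 2 against 2549826.5 and 2624866.5 in Fgf13cko 1 and 2, and mitochondrial regions, which CPM leaves out, took 67.7% and 68.4% of region tags in the controls against 38.5% and 31.5%. A start-site region was present for 12 of 13 progenitor markers (Emx2 had none), and these summed to 934 and 1062 CPM in the controls and 1094 and 915 in Fgf13cko. Of 8 neuron markers 5 had one, with Dcx, Rbfox3 and Stmn2 lacking, and they summed to 111 and 104 CPM against 180 and 164. Both Fgf13cko libraries were above both controls for the neuron sum. Of 6 microglia markers 1 had a start-site region (14.2 and 9.88 against 3.92 and 7.81 CPM), and of 7 endothelial markers 2 had one (summing to 38.2 and 35.5 against 31 and 30.5 CPM), both sums being lower in each Fgf13cko library than in each control. The groups overlapped for 4 of 6 astrocyte markers (103 and 131 against 137 and 119 CPM), 4 of 7 oligodendrocyte markers (216 and 242 against 243 and 198 CPM) and 2 of 5 meningeal markers (59.4 and 53.4 against 65.3 and 50.3 CPM). The part of these differences in the results, those in tags and peaks included, was not tested. Fgf13 itself had 2 start-site regions, at 32.2 and 31.6 against 29.8 and 24.2 CPM and at 37.8 and 36.4 against 42.9 and 29.3 CPM, and regions at start sites do not report a deletion of an exon.

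Across the members, control 1 ranged from 5.04 to 89.5 CPM with a median of 16.7, and control 2 from 5.40 to 95.2 with a median of 16.4. Fgf13cko 1 ranged from 13.3 to 250.2 with a median of 48.2, and Fgf13cko 2 from 13.9 to 221 with a median of 48.6. The median ratio of group means was 2.81, and 114 members had a lowest Fgf13cko CPM of at least 3 times the highest control CPM, 25 of at least 4 times and 5 of at least 5 times. The members took 1.40% and 1.36% of the nuclear tags of control 1 and 2 against 4.09% and 4.0% for Fgf13cko 1 and 2. In the controls they were lower than the other distal regions, whose medians were 19.8 and 19.1 CPM, and in Fgf13cko they were above the others' medians of 18.6 and 23 CPM. The lowest tag count of any member was 14, 17.5, 34 and 36.5 in the 4 libraries in that order.

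**Figure D1:**
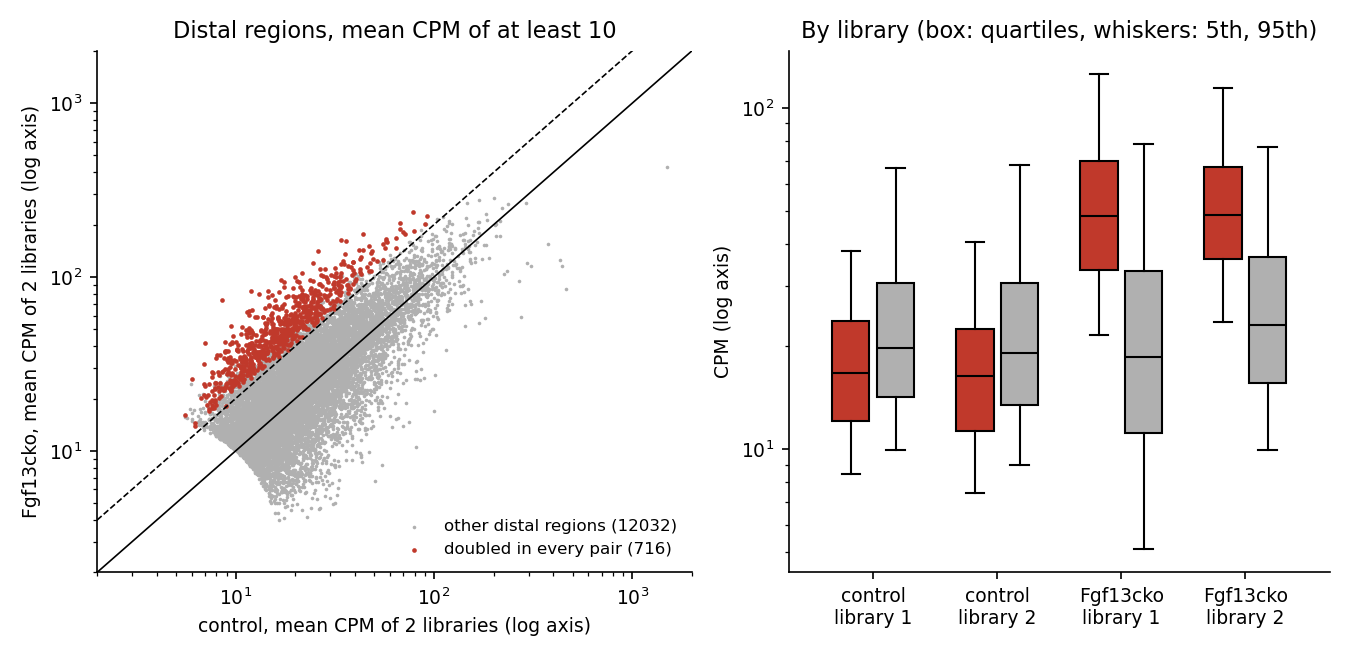
Left, mean CPM in the 2 control libraries (x) against the 2 Fgf13cko libraries (y), both on log axes, for 12748 distal regions, with the 716 members in red, equality as a solid line and 2 times control as a dashed line. Right, CPM per library for members (red) and other distal regions (grey). Members sit above the dashed line by the rule, and their boxes start below those of the others in the controls and end above them in Fgf13cko. The rule also shapes where these boxes lie.

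The libraries of a group were compared with each other, a contrast that the rule constrains, since it needs both Fgf13cko libraries high. Median tags in Fgf13cko 1 and 2 were 123 and 127.5 at members against 47.5 and 60.5 at other distal regions. The part of the rule and of these tags in the differences below was not tested. Between the Fgf13cko libraries the median absolute log2 difference was 0.18 for members and 0.37 for the other distal regions. Between the controls it was 0.21 and 0.22. Fgf13cko 1 was above Fgf13cko 2 in 50.8% of members and in 35.6% of the others. The members were also wider, with a median of 907.5 bp against 777 bp. These widths, and the enrichments that follow, come from peaks in the same libraries that chose the members, so nothing is read from them. In the authors' peak lists the median fold enrichment at members was 4.28 and 4.21 in the controls, where other distal regions had 4.81 and 4.98, and 6.12 and 5.90 in Fgf13cko, where the others had 5.37 and 5.12. All 716 members had a peak in every list, since the table holds only such regions, so regions open in 1 group alone are outside this set.

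Just inside the fold limit lay members near Ces5a, Btbd11 and Spag9, all with a lowest ratio of 2.00, and just outside lay regions near Tnr, Kl and Hmga2-ps1, the first with 29.4 and 34.4 CPM in the controls and 74.9 and 68.8 in Fgf13cko. Just inside the CPM limit were members near Gm35986, Arhgef26 and Gm31508, with mean CPM of 10.0, 10.3 and 10.8. Below the CPM limit doubled regions were few: 8 of 3116 distal regions met the fold rule, and the 3 nearest to the limit (at Dydc2, Tceal1 and Mrgprd) had a mean CPM of 5.70, 3.22 and 1.26.

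A count model fitted across all regions (edgeR quasi-likelihood test, TMM scaling, Benjamini-Hochberg adjustment, threshold 0.05) called 1786 of 28801 tested regions higher in Fgf13cko (6.2%) and 472 lower (1.64%). With a loess offset on abundance the split was 2233 higher and 1182 lower. Among the 12748 distal regions with at least 10 CPM, 1542 were called higher (12.1%). Of the members 703 of 716 were called (98.2%). The fit and the rule use the same contrast, so nothing is read from that share. The 13 members that missed the threshold had at most 29.0 tags in a control library and at most 52.0 in an Fgf13cko library. Without control 1 the fit called 345 members and without control 2 it called 170, while without Fgf13cko 1 or Fgf13cko 2 it called all 716, the lone library being assumed to vary like the other group.

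Of the 10 members with the largest ratio of lowest Fgf13cko to highest control library, 8 lay in introns. The largest ratio was in intron 5 of Csgalnact1, which encodes an enzyme that starts chondroitin sulfate chains (chr8:68392349-68393222, nearest start 1700125H03Rik). This member had 10.8 and 6.17 CPM in control 1 and 2 and 67.7 and 80.0 CPM in Fgf13cko 1 and 2. Its group means were 8.49 ± 3.28 and 73.8 ± 8.73 CPM (SD, n = 2 each), a ratio of 8.70. In intron 2 of Npnt, the gene of nephronectin, a matrix ligand of integrins (chr3:132934377-132935084), CPM was 6.84 and 7.10 against 40.8 and 42.3, and within each group the libraries nearly coincided.

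The non-coding gene Pvt1, which neighbours Myc, held the third in this order, in intron 1 at chr15:62092480-62093306, with 13.3 and 12.8 CPM in control against 75.5 and 83.6 CPM in Fgf13cko. A second Pvt1 member in the same intron had 8.82 and 9.10 against 32.0 and 43.2 CPM, and Pvt1 held 10 distal regions of which these 2 were members. Next came intron 2 of Rnf122, a RING-type ubiquitin ligase, at 15.1 and 14.0 against 84.5 and 81.0 CPM. The fifth was in intron 2 of Angpt2, the angiopoietin that binds the Tie2 receptor, at 17.3 and 17.9 against 93.3 and 94.5 CPM. A second Angpt2 member, in exon 8, had 10.3 and 13.6 against 31.0 and 34.7 CPM. In all of these the highest control lay far below the lowest Fgf13cko library.

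The other 5 of the 10 largest ratios lay in intron 1 of Mgat5, an enzyme that branches N-glycans (17.5 and 16.2 against 106 and 86.9 CPM), 157564 bp downstream of the start of Mllt3, a chromatin reader of the super elongation complex (13.0 and 16.0 against 78.6 and 73.9 CPM), in intron 7 of Epn2 near B9d1 (35.3 and 32.4 against 166 and 160 CPM), in intron 5 of Adgra1, an adhesion G protein-coupled receptor (15.7 and 8.18 against 69.8 and 95.6 CPM), and near Mir8108 (10.8 and 13.3 against 58.8 and 69.5 CPM). The Epn2 intron was the most accessible of the 10. Adgra1 had a wide spread in both groups, with a control mean of 11.9 ± 5.29 and an Fgf13cko mean of 82.7 ± 18.3 CPM (SD, n = 2 each).

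**Figure D2:**
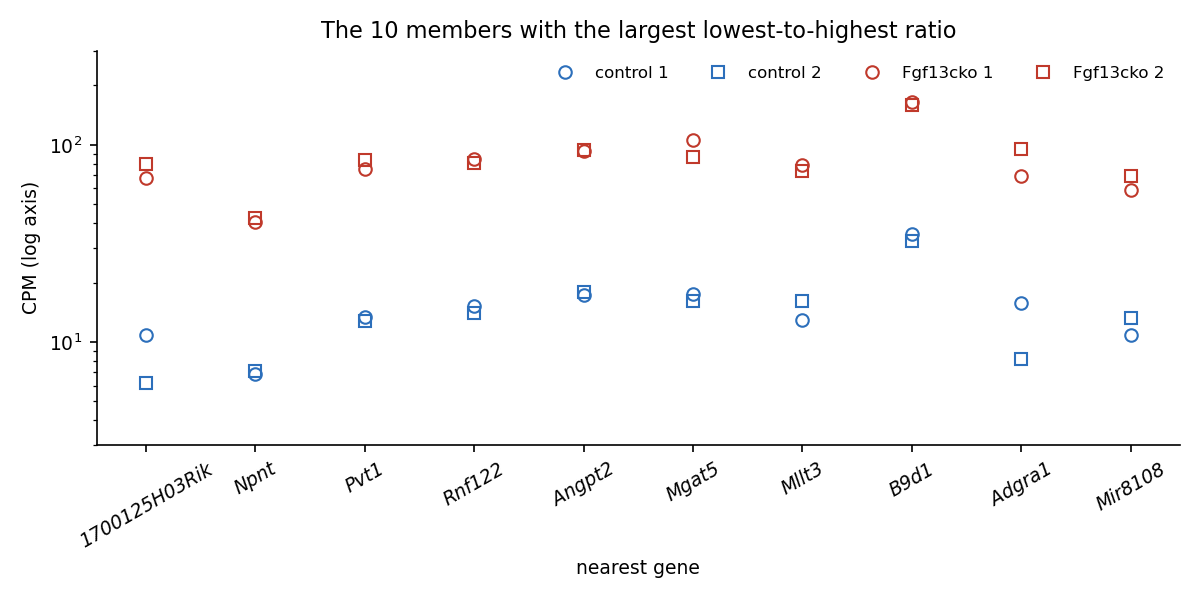
CPM (log axis) of the 10 members with the largest ratio of lowest Fgf13cko to highest control library, named by nearest gene; circles are library 1 and squares library 2, blue for control and red for Fgf13cko. The ratio is 6.26 at the leftmost member and 4.43 at the rightmost, and no control point reaches an Fgf13cko point.

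The 5 with the highest mean CPM were nearest to Sall3, a zinc finger repressor (89.5 and 95.2 against 250.2 and 201 CPM), Xylt1 (72.6 and 84.6 against 249.6 and 221 CPM), Tenm4, a teneurin of the cell surface (86.4 and 92.9 against 208 and 194 CPM), Tspan5, a tetraspanin (58.5 and 76.5 against 224 and 187 CPM), and Coro1c, an actin-binding coronin (82.5 and 76.2 against 201 and 168 CPM). Their mean ratios ran from 2.24 at Tenm4 to 3.05 at Tspan5, on either side of the median of 2.81 over all members.

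The members were spread over 638 nearest genes, and few genes had several. Of these genes 574 had 1 member, 53 had 2, 9 had 3, Tex14 had 4 and Xylt1 had 5. These counts move with the rule: the 11 genes with 3 or more members became 20 without control 1, 18 without control 2, 37 without Fgf13cko 1 and 16 without Fgf13cko 2. At 3 times in every pair 1 such gene was left, Tex14 with 4, and Xylt1 had 1. Xylt1 encodes a xylosyltransferase that starts glycosaminoglycan chains on proteoglycan core proteins. Its 5 members spanned 318 kb (chr7:117368707-117687172), with 1 upstream of the start, 3 in introns and 1 beyond the gene, and the largest ratio of means was 3.71, at the one 305778 bp downstream. That member had 14.8 and 13.6 CPM in control and 51.4 and 53.9 in Fgf13cko. The strongest member, in intron 1 at 81594 bp, had 78.6 ± 8.48 CPM in control and 235 ± 20.0 CPM in Fgf13cko (SD, n = 2 each). Xylt1 had 18 distal regions, the highest number at any gene, and of the 13 that were no members 12 had a ratio of means above 1, the range being 0.85 to 2.89. Xylt1 lies on chromosome 7 beyond 100 Mb, as do the members near Nkx6-2, Lmo1, Sox6, Adgra1, Tead1, Fgfr2 and C030029H02Rik, where distal regions that are no members had a median log2 ratio of 0.39 and start sites 0.27, and the part of that shift in their ratios was not tested. At the Xylt1 start site the groups overlapped, at 56.9 and 58.9 against 70.2 and 45.9 CPM.

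Tex14 encodes a protein of the bridges between male germ cells. All 4 of its distal regions were members, in intron 2 within 29.4 kb (chr11:87442706-87472091), with ratios of means from 3.87 to 5.48. The one at 34896 bp had 12.2 and 6.79 CPM in control and 55.1 and 49.1 in Fgf13cko. Each of the 4 is annotated by the authors' table as a U3 small nuclear RNA repeat. Copies of such a repeat are similar, so tags could have been shared between them, and the 4 are reported as uncertain for that reason. The Tex14 start-site region, which carries no such annotation, had 18.2 and 21.4 CPM against 66.9 and 57.0, also with the groups apart. Tex14 lies on chromosome 11 between 80 and 100 Mb. There distal regions that are no members had a median log2 ratio of 0.38 and start sites -0.11. The part of that shift in its ratios was not tested.

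The 9 genes with 3 members were named after their values were seen. Fam181b, with 3 of 6 distal regions doubled, had its largest ratio 13824 bp downstream of the start, at 22.7 and 25 against 92.4 and 100.2 CPM. Rybp, a subunit of Polycomb repressive complex 1, had members on both sides over 254 kb, up to 21.6 and 20.7 against 101 and 73.5 CPM, while only 1 of its 7 other distal regions had a ratio above 1. The ratio of means of those 7 ran from 0.48 to 1.63. Arhgap12 had 3 members within 48.6 kb downstream, the highest ratio being 26.1 and 30.6 against 106 and 117 CPM. Tbc1d1, a Rab GTPase-activating protein, had 3 members in its introns and 2 other distal regions at 0.42 and 0.87 of control.

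Sipa1l2, of the SPAR family of Rap GTPase-activating proteins, had 3 of 10 distal regions doubled, with ratios of 2.82 to 3.62. Zbtb7c, a BTB zinc finger factor, had 3 of 8 doubled, and the Fam19a5 gene, of a secreted small protein also called Tafa5, had 3 of 8. The 3 members nearest the predicted gene Gm10421 all lay in introns of Ptprn2, a phosphatase-like protein of secretory vesicles, within 31.3 kb. Of the 3 members nearest Nkx6-2, a homeobox factor of ventral progenitors and oligodendrocytes, 2 lay in introns of Inpp5a, an inositol phosphatase, and 1 in an intron of Cfap46. The nearest gene is therefore often not the gene that holds the member.

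**Figure D3:**
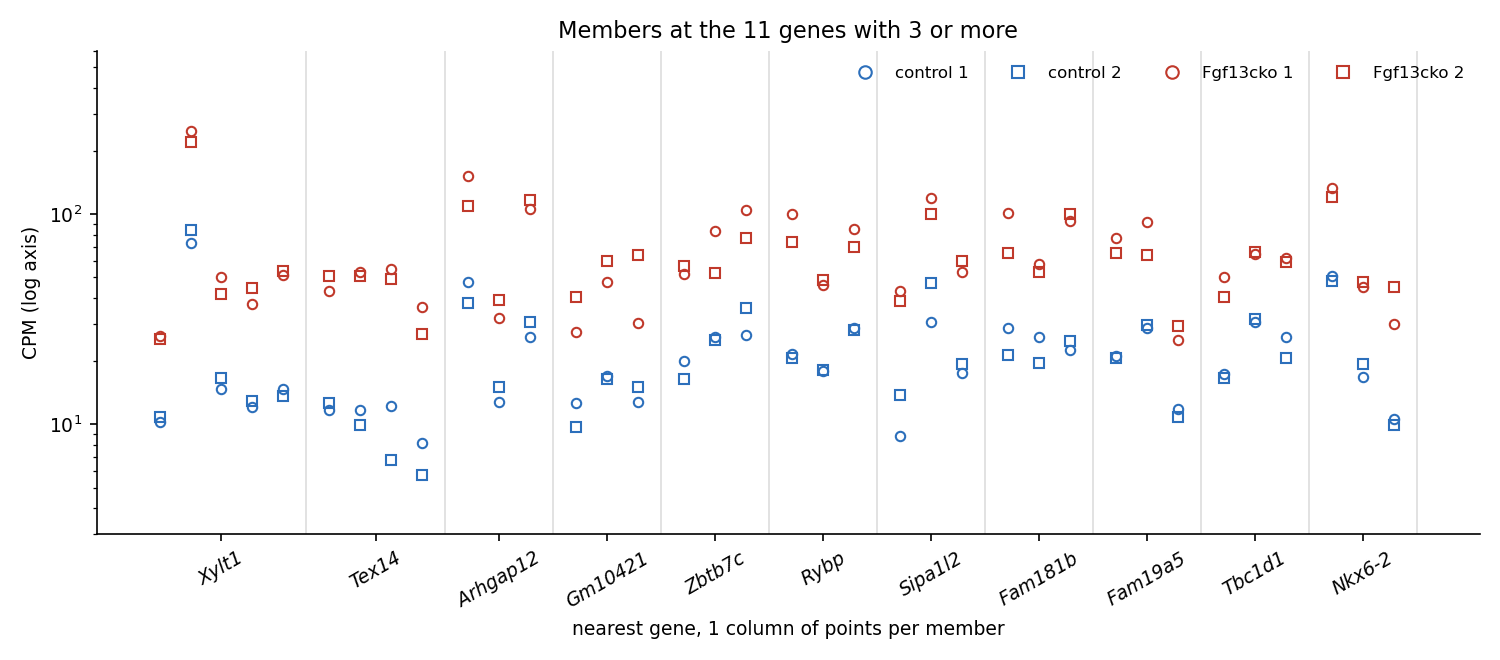
CPM (log axis) in each library of every member at the 11 genes with 3 or more members, with 1 column of points per member; circles are library 1 and squares library 2, blue for control and red for Fgf13cko. At every member both red points lie above both blue points, by the rule, and the highest Xylt1 member reaches 249.6 CPM.

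Host genes gave another grouping. Of 363 intronic members, 229 lay in their nearest gene and 134 in another gene. Cdh4, a classical cadherin of the nervous system, held 4 intronic members of 10 distal regions, 2 of them assigned by distance to Taf4. Its strongest had 30.4 and 27.9 against 95.1 and 91.1 CPM. Msi2, an RNA-binding protein of neural stem cells, held 2 of 14, both assigned to 0610039H22Rik, and the stronger had 35.5 and 38.6 against 137 and 93.7 CPM. An intronic region 15802 bp from the Msi2 start was halved instead, at 43.2 and 47.7 against 12.9 and 12 CPM. Tead1, the Hippo pathway transcription factor, held 2 of 7, at 22.7 and 21 against 67.1 and 59.1 CPM and at 7.74 and 7.87 against 18 and 20.8 CPM. These 3 host genes were chosen after their values were seen.

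Most members had no other member nearby. A chain was taken as members no more than 50 kb apart, and 48 chains held 102 members, 14.2% of the 716. Of the 12748 distal regions, 58.8% had another within 50 kb, a share over far more regions, so that it cannot be set beside the members' share. There were 43 chains of 2, 4 of 3 and 1 of 4, and the chain of 4 was the Tex14 one. The 4 chains of 3 were at Gm10421 (31.3 kb), Arhgap12 (48.6 kb), Zbtb7c with Ctif (82.6 kb) and Dennd2a with Gm10244 (65.5 kb). The median gap from a member to the next was 610 kb. Clustering beyond that of distal regions in general was not tested.

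Distal regions that are no members had a median log2 ratio of 0.11 over all, and it was higher close to members. Their median ratio to control 1 and 2 was 0.97 and 0.99 for Fgf13cko 1. For Fgf13cko 2 it was 1.15 and 1.18. Those within 10 kb of a member (139 regions) had a median log2 ratio of 0.30. It was 0.22 from 10 to 50 kb, 0.20 from 50 to 200 kb, 0.11 from 200 to 1000 kb and 0.07 beyond, so the median fell with each step away. Without chromosome 7 the values were 0.26, 0.20, 0.19, 0.10 and 0.07. Both Fgf13cko libraries lay above both controls at 42.4% of the regions within 10 kb and at 33.3% of those beyond 1000 kb. Opposite changes also occurred near members. Of the 281 halved regions, 10 lay within 50 kb of a member (3.56%), against 6.04% of the other distal regions. The one near Arhgap12, 9.05 kb from a member, had 42.5 and 62.0 CPM in control and 17.5 and 16.8 in Fgf13cko.

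The members lay at all distances from the nearest start site. The median distance was 46322 bp for members (95% order-statistic interval 41718 to 50727 bp) and 42509.5 bp for all 12748, and the members' range was 5042 bp at Limd1 to 683237 bp at Olfm4. Upstream of the start lay 39.7% of members and 40.2% of the others. The share of regions doubled was 5.11% from 5 to 10 kb, 4.99% from 10 to 20 kb, 5.76% from 20 to 50 kb, 5.65% from 50 to 100 kb, 6.86% from 100 to 200 kb and 5.21% from 200 to 500 kb. By the same rule it was 0.33% within 1 kb of a start site and 2.30% from 1 to 5 kb. Doubling was thus rarer at start sites than at any distal band, and the distal bands differed little up to 500 kb. Halving was also rarest within 1 kb, at 0.18%, with 1.60% from 1 to 5 kb. In the bands from 5 to 500 kb the halved share was 1.22% to 2.71%. The median log2 ratio was -0.12 within 1 kb and 0.10 to 0.17 in those distal bands. Beyond 500 kb 8 of 222 regions were doubled (3.60%) and 10 were halved.

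**Figure D4:**
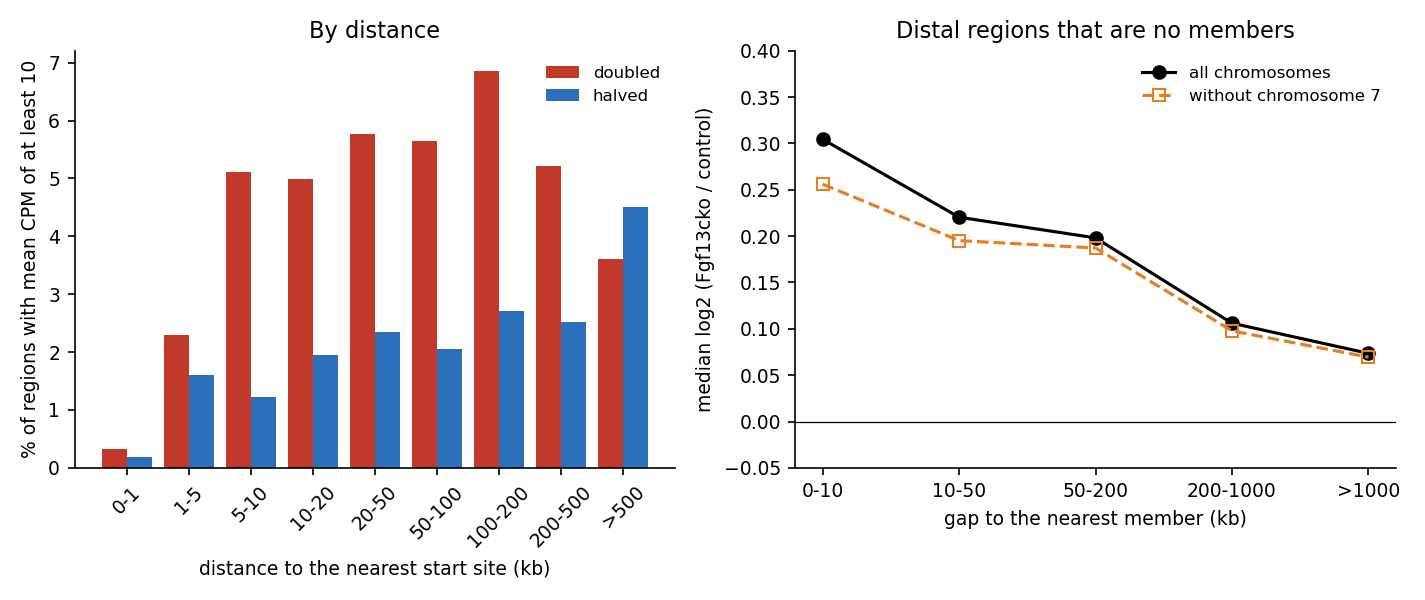
Left, percent of regions with mean CPM of at least 10 that doubled (red) or halved (blue) in every pair, by distance to the nearest start site in kb. Right, median log2 ratio of Fgf13cko over control at distal regions that are no members, by gap to the nearest member in kb, for all chromosomes (black) and without chromosome 7 (orange). Doubled regions make up 0.33% within 1 kb of a start site and at least 3.60% in each band beyond 5 kb.

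By annotation 363 members (50.7%) were intronic and 331 (46.2%) intergenic, with 9 in exons, 8 at transcript ends, 3 in 3' UTRs, 1 in a 5' UTR and 1 in a non-coding exon. The doubled share was 6.04% of intronic and 5.28% of intergenic distal regions. CpG islands away from start sites had 1 doubled of 434 (0.23%). LTR, LINE and SINE repeats had 5.80%, 5.58% and 6.57%, close to the 5.62% of all distal regions. Small nuclear RNA repeats had 5 doubled of 6, the 4 at Tex14 and 1 annotated as U5 near Parp16 (12.1 and 6.33 against 34.5 and 34.1 CPM). The sixth, a U2 repeat near Rdm1, had 16.2 and 22.5 against 41.0 and 46.1 CPM and missed the fold rule.

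Chromosomes differed in their share of doubled regions. Chromosome 7 had 77 members of 724 distal regions (10.6%), chromosome 12 had 8.01% and chromosome 11 had 6.89%. The lowest shares were 1.76% on chromosome 16 and 2.85% on chromosome 19. On chromosome 7 the part from 100 Mb on had 48 of 323 (14.9%) and the part before it 29 of 401 (7.23%). In the distal part of chromosome 7 the distal regions that are no members had a median log2 ratio of 0.39 and the start-site regions 0.27, where all chromosomes together had 0.11 and -0.12. Members, other distal regions and start sites there were thus all higher relative to the rest of the genome. Without chromosome 7 there were 639 members of 12024 distal regions (5.31%).

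**Figure D5:**
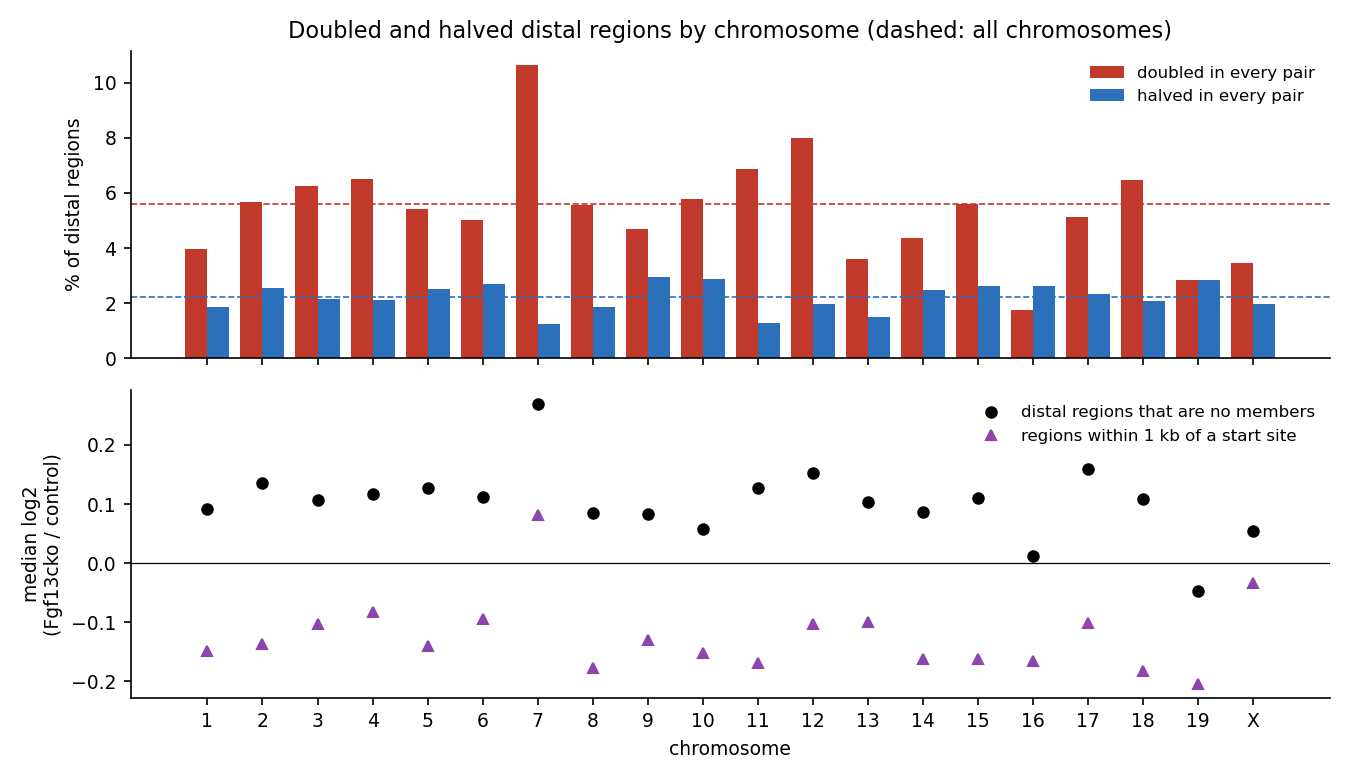
Top, percent of distal regions doubled (red) or halved (blue) in every pair by chromosome, with dashed lines at 5.62% and 2.2% for all chromosomes. Bottom, median log2 ratio of Fgf13cko over control for distal regions that are no members (circles) and regions within 1 kb of a start site (triangles). Chromosome 7 has the highest doubled share (10.6%) and the highest median in both lower series.

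Genes of the growth factor pathway that keeps neurospheres cycling were taken from a list of 24 genes (FGF, EGF and MAPK feedback). Of their 48 distal regions 7 were members (14.6%), and 2 were halved, near Pdgfc and Erbb4. The background share was 5.62%. Egfr, the EGF receptor, had 2, one 82081 bp upstream at 7.20 and 8.95 against 30.2 and 41.1 CPM and one in intron 1 at 32.2 and 30.4 against 85.3 and 88.4 CPM. Spry2 and Spry4, which encode Sprouty inhibitors of receptor tyrosine kinase signalling, had 1 each, at 15.3 and 16.8 against 54.3 and 43.8 CPM for Spry2. The other 3 were near Fgf9, a secreted ligand, Spred1, a Ras-MAPK inhibitor, and Fgfr2, a receptor for FGF ligands.

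The Egfr neighbourhood held more members than the nearest-gene count shows. From 250 kb before to 250 kb after the gene (chr11:16752203-16913907), 5 of 10 distal regions were members, of which 2 were assigned to Sec61g and 1 to Eldr. The member at chr11:16627505-16628486 had 29.5 and 30.2 CPM in control and 88.0 and 80.0 in Fgf13cko. The Eldr one had 21.4 and 22.8 against 70.2 and 66.5 CPM. All 5 had every Fgf13cko library above both controls by the rule, and this window was chosen after the values were seen.

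Stem cell and radial glia genes had 8 members of 86 distal regions (9.30%). Tnc, the gene of tenascin-C, a matrix glycoprotein of the stem cell niche, had the largest ratio, in an intron 44535 bp downstream of the start, at 13.3 and 9.41 against 57.1 and 68.0 CPM. Nfia, a gliogenic nuclear factor, had 2 members upstream and 1 halved region in the gene, at 33.1 and 24.5 against 4.31 and 10.9 CPM. Egfr had 2 (given above), Nfib, Id3 and Fgfr2 had 1 each, and Id3, an inhibitor of basic helix-loop-helix factors, is also on the astrocyte list, where it was the only member of 22 regions.

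Notch genes had 4 of 31 (12.9%), namely 2 in introns of Maml2 and 1 in Maml3, both coactivators of the Notch intracellular domain, and 1 near Lfng, a glycosyltransferase that modifies Notch. The stronger Maml2 member had 24.1 and 30.7 against 119 and 84.0 CPM. Maml2 also had a halved region 16.2 kb from its start, at 23 and 25.9 against 11.4 and 9.71 CPM. Neurogenic genes had 3 of 28 (10.7%), among them one near Insm1 (20.0 and 20.1 against 63.9 and 59.6 CPM) and one in an intron of Prox1 (9.18 and 5.40 against 20.8 and 21.3 CPM). Insm1 encodes a factor of intermediate progenitors and Prox1 one of granule neurons.

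Matrix, adhesion and guidance genes had 14 of 139 (10.1%) at 10 genes, led by Npnt, Mgat5 and Adgra1, which are given above, and Tnc. Itgb1, the integrin beta 1 subunit, had 2, and Cdh13, Cdh4 and Sema3a had 2 each. At Cdh13, a cadherin anchored by a lipid, the stronger had 16.7 and 15.1 against 72.6 and 64.2 CPM.

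The other lists had shares from 0% to 5.71%. Neuron and synapse genes had 4 of 86 (4.65%), among them those at Nptx1, Nlgn1 and Ank2. GABAergic genes had 2 of 35 (5.71%), near Nr2f1 and Maf, and 1 halved near Gad2, a GABA-synthesising enzyme (73.6 and 99.1 against 28.2 and 30.7 CPM). Oligodendrocyte lineage genes had 2 of 62 (3.23%), both at Sox6, and 1 halved near Tcf7l2. Wnt and BMP genes had 3 of 68 (4.41%), at Bmpr1b, Fzd10 and Bmp7, and as many halved, near Tcf7l2, Wnt7b and Bmp7. AP-1, Myc and stress genes had 3 of 59 (5.08%), the 2 at Pvt1 and 1 near Fos. On that list 4 regions were halved, near Jun, Nr4a1, Nfkbiz and Nr4a2, and at Nr4a1, an immediate early nuclear receptor, the values were 27.2 and 45.1 against 10 and 7.81 CPM. Endothelial genes had 0 of 18, meningeal genes 0 of 14 and microglial genes 0 of 1. Over all 14 lists it was 46 of 671 (6.86%), and distal regions on the lists that were no members had a median log2 ratio of 0.16, against 0.11 for all.

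Promoters of the members' nearest genes were not used by the rule but come from the same contrast. A promoter here is all regions that overlap the 1 kb on each side of the start site, summed per gene. It can therefore include wide regions whose own distance exceeds 1 kb. The fit across 11303 promoters called 242 higher (2.14%) and 68 lower (0.602%), and with library sizes over nuclear regions in place of TMM 98 higher and 91 lower. That scaling moved the median promoter log2 fold change from -0.01 to -0.13. Of the 638 genes, 399 had a tested promoter, 27 of them higher (6.77%) and 1 lower, with a median log2 fold change of 0.12. With nuclear library sizes and no TMM it was 11 higher and 3 lower, with a median of 0.01. Leaving out 1 library gave 0 higher without either control, 50 without Fgf13cko 1 and 102 without Fgf13cko 2. The lower one was Epb41l2, which links membrane proteins to the cytoskeleton and had 2 members, at 58.7 and 51.7 against 28.4 and 25.1 CPM. Of 44 with at least 2 members, 5 were higher, namely Tex14, Gm10432, Cdh4, Sergef and Sox6. Promoters of genes with other distal regions only were higher in 106 of 3474 (3.05%). Without chromosome 7, 19 of 359 were higher (5.29%). These shares come from the libraries that chose the members, so nothing is read from them. Without control 1 or without control 2 edgeR called 0 promoters higher, with 603 and 594 at an unadjusted p under 0.05, and DESeq2 called 276 on all 4 libraries.

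Among the promoters called higher were those of Tex14, Cdh4 (97.4 and 92.9 against 237 and 146 CPM), Bmp7, a BMP ligand (34.9 and 35.2 against 71.6 and 51.2 CPM), Lmo1 (27.2 and 32.7 against 55.9 and 51.2 CPM), Grm5, a metabotropic glutamate receptor (21.2 and 19 against 39.2 and 34.7 CPM), and Sox6, a SOX factor of progenitors and oligodendrocyte precursors (81.6 and 73.9 against 122 and 112 CPM). At each of these both Fgf13cko libraries were above both controls. The Tnc promoter was not called, at 22 and 30.9 against 47.1 and 34.1 CPM. These promoters were named after their values were seen.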

How the data were processed

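Members, gene lists and tests were chosen with earlier results of these data known. Bowtie2, Picard, MACS2, DESeq2 and HOMER are named in the submitters' processing notes, without versions or roles. How duplicates and the transposase offset were handled is not given in the sources used here. The deposited table holds estimated counts, raw HOMER tag counts per merged broad peak on mm10, per the file headers. Per the column order of the deposited peak lists, each peak has the authors' score, a fold enrichment (a ratio), a -log10 p and a -log10 q. These were used only within a list.

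CPM was the count over the tags of nuclear regions, without mitochondrial ones. Counts were rounded and fitted with edgeR 4.0.16 (R 4.3.3, TMM, filterByExpr, quasi-likelihood test, Benjamini-Hochberg), with DESeq2 1.42.0 as an alternative. The fit was tested on simulated data. P-values measure the spread between these 2 libraries a group, which may be technical. Regions were named by fixed rules (genes with 4 or more members, the 10 largest ratios, the 5 highest CPM, chains, up to 4 per list, edges of the rule). Some exceptions are marked in the text. Unmarked ones include most halved regions, the small nuclear RNA repeats near Parp16 and Rdm1, and list members beyond 4 per list. Alternatives were scaling, thresholds, distance, filters, a replicate block and leaving out each library. Start-site sequences and gene symbols are RefSeq's, on GRCm38.p6. The 716 member regions themselves were searched for motifs only where they overlap such windows. Some members counted on the gene lists are not reported here by name.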

Additional observations from a re-analysis of the deposited data

How the results depend on the processing

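The number of members was 114 at 3 times in every pair, 1828 at 1.5 times, and 3579 with CPM over all tags of the table, mitochondrial regions included. It lay between 986 and 1401 when 1 library was left out: 1114 without control 1, 986 without control 2, 1401 without Fgf13cko 1 and 1012 without Fgf13cko 2. Fewer pairs had to pass in each of these. With TMM-normalised CPM 707 of the 716 members were kept among 760. The share in chains was 8.77% at 3 times, 19.7% at 1.5 times, 30.9% with all tags, and 6.98% and 19.4% for chains of 20 and 100 kb, and ranged from 14.3% to 18.8% without 1 library. The median distance was 64556 bp beyond 20000 bp and otherwise stayed within its interval. Regions called higher ranged from 192 to 5100 without 1 library (416 without control 1, 192 without control 2, 4125 without Fgf13cko 1, 5100 without Fgf13cko 2), members called from 170 to 716, and promoters called from 0 to 1412 (685 without Fgf13cko 1, 1412 without Fgf13cko 2). The promoter count was 98 with nuclear library sizes and no TMM. The cause of these shifts was not tested.

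Same-numbered libraries did not deviate together (r = -0.15). A single value from 2 libraries a group cannot tell whether same-numbered libraries belong together, and the labels do not say. With the replicate block 2105 regions, 702 members and 301 promoters were called higher. With the crossed pairing, added after seeing that correlation, 2693 regions, 711 members and 331 promoters were called. The planned motif share over whole regions was not run, since no genome sequence was used here. Lowest counts of 14 to 36.5 tags per library limit members near the CPM minimum.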

Other observations

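Both a doubled and a halved distal region lay near 20 genes, among them Bmp7 and Lmo4, a LIM-only cofactor. The Bmp7 member, in an intron 6372 bp downstream of the start, had 18.2 and 12.5 CPM in control and 39.2 and 46.7 in Fgf13cko, and the halved region at Bmp7, 183636 bp downstream, had 42.1 and 42.3 against 11.4 and 18.1 CPM. At Lmo4 the halved region had 56.9 and 44.3 against 2.16 and 11.2 CPM. These 2 genes were named after their values were seen.

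The 20 Mb stretch of chromosome 12 from 100 to 120 Mb had 20 members of 148 distal regions (13.5%), and its other distal regions had a median log2 ratio of 0.31. On chromosome 7 the same values were 16.4% and 0.33 from 100 to 120 Mb and 15.4% and 0.44 from 120 to 140 Mb. Chromosome 11 from 80 to 100 Mb, which holds Tex14 and Msi2, had 14 of 108 (13.0%) and 0.38. Chromosome 7 from 40 to 60 Mb had 7 of 53 (13.2%) and 0.33. Start-site medians were -0.11 in that part of chromosome 11, 0.03 at 40 to 60 Mb of chromosome 7 and 0.10 in the chromosome 12 stretch. The cause was not tested.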
